A study of Homo sapiens with 6 samples.

Results

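Ribosomal protein genes were taken in 2 classes, those of the cytosolic ribosome and those of the mitochondrial ribosome. The members were the symbols of the platform annotation that begin with RPS, RPL, RPSA or RPLP (cytosolic) or with MRPS or MRPL (mitochondrial) and carry a protein number, with paralogues such as RPL3L kept and pseudogenes, kinases and antisense RNAs left out. Each gene was read from 1 row of the array table, its brightest. This gave 125 genes out of the 14884 named in the table, 52 cytosolic (18 of the small and 34 of the large subunit) and 73 mitochondrial (25 small, 48 large). Subunits were assigned by symbol, so MRPS18A and MRPS30, which sit in the large subunit of the assembled mitochondrial ribosome, count here as small subunit genes. The current gene table lists 86 cytosolic and 77 mitochondrial protein-coding symbols of this form, so 34 and 4 of them are not analysed here, among them RPL3, RPL5, RPLP0 and MRPL12.

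The cells were Flp-In T-REx cells, a form of HEK293 (human embryonic kidney cells kept as a line) that takes up a construct at a fixed genomic site. They stably expressed TDNC1 (3 arrays) or a random RNA as the control (3 arrays), and stable clones were pooled within a group. The name TDNC1 is not spelled out in the labels, nor is it stated whether an inducer was given. Both groups grew in high-glucose DMEM with serum, penicillin-streptomycin, blasticidin and, after transfection, hygromycin in place of Zeocin. Blasticidin and hygromycin act on ribosomes, and the control cells carried the same selection. The arrays of a group are called biological replicates without word of separate cultures, so every p-value below measures the spread between these samples, which may be technical. Total RNA of pooled cells was measured, in which fewer expressing cells and less RNA per cell cannot be told apart.

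The cytosolic ribosome makes nearly all proteins of a cell and is built in the nucleolus from ribosomal RNA and proteins of a small (40S) and a large (60S) subunit. Most of its protein genes begin transcription within a run of pyrimidines, the terminal oligopyrimidine tract, through which mTORC1 signalling controls translation of their mRNAs. The mitochondrial ribosome translates the few respiratory chain proteins encoded in mitochondrial DNA. Its own protein components are nuclear-encoded, made in the cytosol and imported, and form a small (28S) and a large (39S) subunit.

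The start sites below, 30 bases before to 30 bases after a RefSeq start (GRCh38.p14), belong to 4 genes of each class whose values are given further on. Capitals mark the longest run of C or T whose first base lies within 20 bases of the start.
RPL19: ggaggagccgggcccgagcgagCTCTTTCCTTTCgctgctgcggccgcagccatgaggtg
RPL27: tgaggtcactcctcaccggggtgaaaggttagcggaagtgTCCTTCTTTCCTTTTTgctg
RPS26: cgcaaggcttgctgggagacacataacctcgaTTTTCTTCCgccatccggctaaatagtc
RPS7: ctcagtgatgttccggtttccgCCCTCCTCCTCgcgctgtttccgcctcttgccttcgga
MRPS34: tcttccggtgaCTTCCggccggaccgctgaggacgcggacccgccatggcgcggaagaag
MRPS16: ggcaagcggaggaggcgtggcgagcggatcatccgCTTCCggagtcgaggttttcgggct
MRPL9: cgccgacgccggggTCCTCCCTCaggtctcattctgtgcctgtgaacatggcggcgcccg
MRPL49: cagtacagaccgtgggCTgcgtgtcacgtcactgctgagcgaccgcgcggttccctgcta
These windows lie at chr17:39200293-39200352 (plus strand) for RPL19, the one of its 2 listed starts with the longer run, and at chr17:42998389-42998448 (plus) for RPL27. They lie at chr12:56041888-56041947 (plus) for RPS26 and at chr2:3575230-3575289 (plus) for RPS7. Those of the mitochondrial genes are chr16:1773105-1773164 (minus) for MRPS34, chr10:73252615-73252674 (minus) for MRPS16, chr1:151763467-151763526 (minus) for MRPL9 and chr11:65122153-65122212 (plus) for MRPL49. MRPL49 also has 2 listed starts, and its window was chosen by run length in the same way as that of RPL19. The runs of the 4 cytosolic genes were 12, 16, 9 and 11 bases long in the order printed. Those of the mitochondrial genes were 5, 5, 9 and 2 bases long, so the run of MRPL9 was as long as that of RPS26. The runs of RPL27 and RPS26 begin 11 and 3 bases into the transcript as RefSeq lists it, counting its first base as 1, and do not hold the listed start itself.

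Among the genes with a listed start, a run of at least 8 bases was found in 39 of 47 cytosolic genes (83.0%) and in 11 of 65 mitochondrial genes (16.9%), against 22.6% of all 15842 protein-coding genes. The median longest run was 12 bases in the cytosolic class, 5 in the mitochondrial class and 5 over all genes. Within the cytosolic class, 88.2% of small and 80.0% of large subunit genes had such a run. Short motifs were searched on both strands of 300 bases (250 before the start to 50 after it). A gene with several listed starts was counted where any of them held the motif. CCGGAAG is the core bound by ETS factors such as GABP (also called NRF2), a regulator of mitochondrial genes. It was found for 31.9% of cytosolic and 44.6% of mitochondrial genes, against 16.5% of all genes. Its reverse complement CTTCCGG stands in the printed window of MRPS16 (1 copy, overlapping the capitals) and in that of MRPS34 (2 copies, 1 of them outside the capitals). AAGATGGCG, a YY1 motif, was found for 8.51% of cytosolic and 18.5% of mitochondrial genes, against 3.21% of all genes. The NRF1 palindrome, GCGCA followed by its own reverse complement, was rare everywhere, for 2.13%, 1.54% and 1.99% of cytosolic, mitochondrial and all genes. A match describes the letters and not a bound site.

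**Figure D1:**
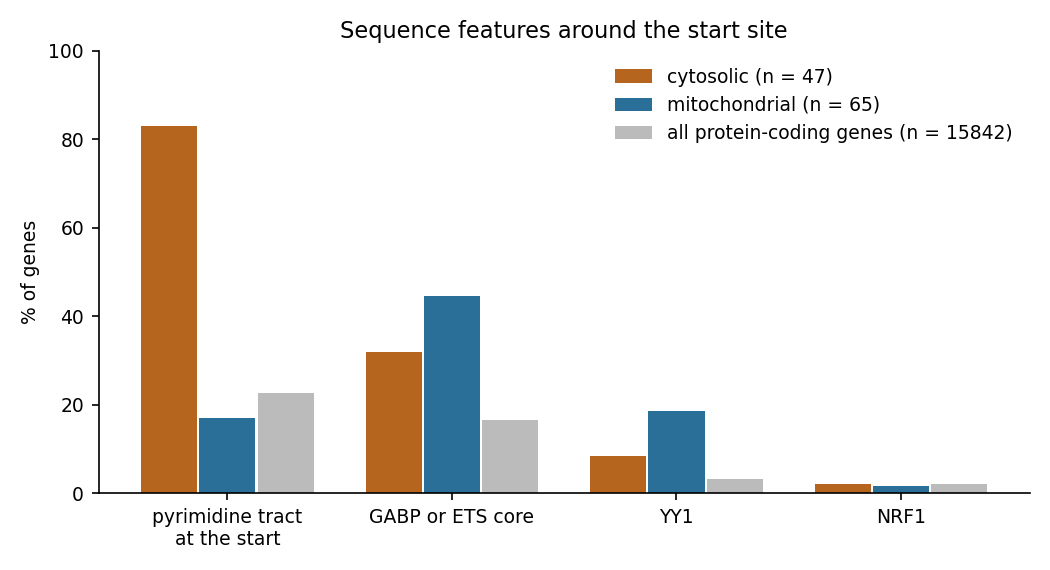
Share of genes (%, vertical axis) with a run of at least 8 pyrimidines at the start site or with 1 of 3 short motifs in the 300-base window, for cytosolic and mitochondrial ribosomal protein genes and all protein-coding genes. The run stands out in the cytosolic class (83.0%, against 16.9% in the mitochondrial class), while CCGGAAG is most frequent in the mitochondrial class (44.6%).

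The table held 53617 rows of log2 expression values, with array medians of 5.16 to 5.22. In the whole comparison limma called 1 row, LOC646736, which is no ribosomal protein gene. Here and below, a listed gene is called measured where a row was named for it, and the others may lie on unnamed rows. Of 8 HEK293 markers 5 were measured (median change 0.06), and among them VIM, PAX2 and PAX8 were brighter than 92.1%, 67.0% and 48.4% of rows. PAX2, a transcription factor of the developing kidney, read 6.49, 6.26 and 6.22 with TDNC1, against 5.87, 5.78 and 6.09 in control cells, without overlap (0.41, SE 0.12, limma adjusted p = 0.631). It did not pass the test, and its unadjusted p was smaller than that of every member's brightest row. The part of this marker's difference in the results below was not tested. Of 8 fibroblast markers 3 were measured (median change -0.07), with DCN, LUM and THY1 brighter than 6.12%, 22.1% and 61.4% of rows. Of 8 blood cell markers 2 were measured (median change -0.06), with LYZ and CD14 brighter than 32.8% and 44.2%. Among the TDNC1 arrays, that of replicate 3 was unlike the others. Over the members its distance (the median absolute log2 difference) was 0.151 to TDNC1 replicate 1 and 0.117 to TDNC1 replicate 2, but 0.0519 to control replicate 3, the smallest distance of all pairs. Over all rows the same 3 distances were 0.188, 0.177 and 0.136. TDNC1 replicates 1 and 2 were 0.0757 apart over the members. Control replicate 3 was also farther from control replicates 1 and 2 (0.0888 and 0.0977 over the members) than they were from each other (0.0605). Over all rows these distances were 0.162, 0.160 and 0.136. Results are therefore given with and without TDNC1 replicate 3, and some at the end without both arrays numbered 3.

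No ribosomal protein gene of either class passed the test in cells expressing TDNC1. Of 125 members 0 had a limma adjusted p under 0.05 (the share called over all rows was 0.00187%), and the lowest adjusted p among them was 0.637. The median log2 change (TDNC1 minus control) was -0.007, with 59 members above and 66 below 0, and the 10th and 90th percentiles at -0.17 and 0.12. Over all rows the median was -0.01 and those percentiles were -0.25 and 0.22. At an unadjusted p under 0.05 stood 2 of 125 members (1.6%), RPL19 higher and RPS26 lower, against 7.7% of all rows (3.74% higher and 3.96% lower). Only RPS26 differed by more than 0.5 on the log2 scale, as did 3.24% of all rows.

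For 120 of the 125 members the 95% interval of the difference lay within a 1.5-fold change either way, as it did for 76% of all rows. Among named genes at least as bright as the dimmest member the share was 86.9%. The exceptions among the members were RPL31, RPS26, MRPL27, MRPL4 and MRPL49. A larger difference than 1.5-fold is therefore outside the interval for most members, taken gene by gene. RMA gives all arrays the same distribution of probe values, so a shift shared by most transcripts would not appear here.

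**Figure D2:**
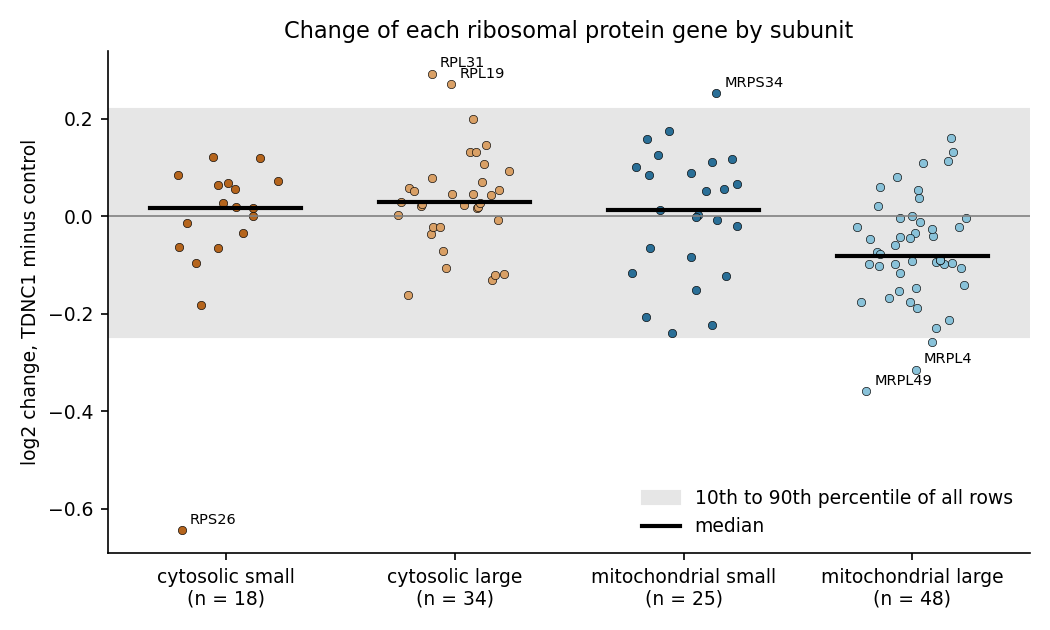
Log2 change (TDNC1 minus control, vertical axis) of each of the 125 genes, 1 point per gene, in the 4 subunit groups. The mitochondrial large subunit has most points below 0 (38 of 48), and RPS26 (-0.64) lies farthest from 0.

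The values of the 2 classes differed little from each other. The median change was -0.04 in the 73 mitochondrial genes (24 above and 49 below 0) and 0.03 in the 52 cytosolic genes (35 above and 17 below 0). Over all rows 47% were above and 53% below 0. The median of the mitochondrial genes minus that of the cytosolic genes, each relative to the control mean, was -0.065, -0.086 and -0.028 on the TDNC1 arrays, against 0.013, -0.029 and 0.037 on the control arrays. TDNC1 replicate 3 and control replicate 2 overlapped, so the 2 sets of arrays were not separated by this difference. Groups of arrays that did not overlap were found for 7 of 52 cytosolic genes (5 higher and 2 lower) and for 11 of 73 mitochondrial genes (4 higher and 7 lower). Together these are 14.4% of members, against 13.2% of all rows (6.48% higher and 6.7% lower). Among named genes at least as bright as the dimmest member the share was 16.2%.

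In the cytosolic small subunit 11 of 18 genes were above 0 and 7 below, with a median of 0.02, which is -0.03 without TDNC1 replicate 3. RPS26, which lies at the mRNA exit channel and is mutated in Diamond-Blackfan anaemia, had the widest spread of the members. It read 6.89, 7.50 and 8.01 in cells expressing TDNC1, against 8.12, 8.03 and 8.19 in control cells. All TDNC1 arrays lay below all control arrays, but the third by little. The log2 change was -0.64 (SE 0.26, 95% interval -1.25 to -0.04, limma adjusted p = 0.646), and it was -0.36 without TDNC1 replicate 1 and -0.91 without TDNC1 replicate 3. The gene table lists 59 pseudogenes named for RPS26, and their part in the value was not tested.

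RPS7, a protein of early small subunit assembly that also binds MDM2, was the other small subunit gene with groups apart. Its values were 5.89, 6.02 and 5.99 with TDNC1, against 6.06, 6.17 and 6.22 in control cells, a log2 change of -0.18 (SE 0.09, limma adjusted p = 0.674). RPS6, the S6 kinase substrate, read 8.66, 8.62 and 8.48 with TDNC1 and 8.53, 8.51 and 8.50 in control cells, so the groups overlapped (0.07, SE 0.09). RPS19, the gene most often mutated in Diamond-Blackfan anaemia, read 12.23, 12.28 and 12.34 with TDNC1, against 12.15, 12.17 and 12.34 in control cells (0.06, SE 0.10). Neither differed beyond its error.

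In the cytosolic large subunit 24 of 34 genes were above 0 and 10 below, with a median of 0.03. RPL19, which takes part in a bridge between the subunits, had the smallest p among the brightest rows of the members. Its values were 10.84, 10.85 and 10.72 in cells expressing TDNC1, against 10.46, 10.47 and 10.67 in control cells. The TDNC1 arrays lay above the control arrays, with the arrays numbered 3 closest together. The log2 change was 0.27 (SE 0.10, 95% interval 0.03 to 0.51, limma adjusted p = 0.637). RPL27 read 11.34, 11.35 and 11.12 with TDNC1 and 11.04, 11.10 and 11.08 in control cells, also without overlap (0.20, SE 0.10, limma adjusted p = 0.671).

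RPL31, which lies at the exit of the peptide tunnel, had the largest positive change, 0.29 (SE 0.15, limma adjusted p = 0.676). Its groups overlapped, with 6.40, 6.24 and 6.17 in TDNC1 cells and 5.67, 6.21 and 6.06 in control cells, and the change was 0.14 without control replicate 1. RPL22, RPL37A and RPL41 were the other genes with all TDNC1 arrays above all control arrays, at 0.15, 0.13 and 0.06. RPL11, which restrains MDM2 together with RPL5 and 5S RNA when ribosome assembly fails, read 11.50, 11.49 and 11.39 with TDNC1 and 11.34, 11.42 and 11.35 in control cells, with overlapping groups (0.09, SE 0.09). The lowest changes of the large subunit by p were those of RPL26L1 (-0.16), RPL35A (-0.13) and RPL6 (-0.12), all with overlap.

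Several cytosolic proteins have a paralogue of restricted or variable use. Of 9 such genes listed, 7 were measured, with a median change of 0.00 and 4 above and 3 below 0, and 0 passed the test (limma, 0 also at an unadjusted p under 0.05). RPL3L, the paralogue of striated muscle, had a change of -0.01 (SE 0.11), and RPL10L, the testis paralogue of RPL10, averaged 4.27 ± 0.18 with TDNC1 and 4.27 ± 0.23 in control cells (SD, n = 3 each). RPL10 itself read 12.12, 12.14 and 12.15 with TDNC1, against 12.09, 12.16 and 12.11 in control cells. RPL39L, whose protein is abundant in testis and in many cell lines, read 6.54, 6.79 and 7.09 with TDNC1, and 6.68, 6.74 and 6.67 in control cells. The TDNC1 arrays fell on both sides of the control arrays (0.11, SE 0.15). Its parent RPL39 had a change of -0.11 (SE 0.12) on its brightest row, which lay on the other strand, and of 0.22 (SE 0.09) at its own gene. RPL22L1 and RPS27L had changes of 0.03 (SE 0.10) and 0.07 (SE 0.15), against 0.15 (SE 0.09) for RPL22 and 0.12 (SE 0.09) for RPS27.

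In the mitochondrial small subunit 14 of 25 genes were above 0 and 11 below, with a median of 0.01. MRPS34, needed for stability of the small subunit, read 10.67, 10.83 and 10.522 with TDNC1, against 10.36, 10.39 and 10.518 in control cells. The groups were apart only by the small gap between the arrays numbered 3. The log2 change was 0.25 (SE 0.11, 95% interval -0.01 to 0.51, limma adjusted p = 0.646). MRPS16, a homologue of a bacterial small subunit protein, had 9.29, 9.32 and 9.45 with TDNC1 and 9.65, 9.44 and 9.69 in control cells. The groups overlapped, and the change was -0.24 (SE 0.11, limma adjusted p = 0.647). MRPS2, also with a bacterial homologue, read 7.15, 7.24 and 7.46 with TDNC1 and 7.46, 7.40 and 7.65 in control cells (-0.22, SE 0.12).

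MRPS18A and MRPS18B are paralogues, of which MRPS18B is a small subunit protein. With MRPS18A and MRPS30 counted in the large subunit instead, 38 of 50 large subunit genes were below 0 (median -0.07), and 11 of 23 small subunit genes (median 0.01). MRPS18A read 9.52, 9.53 and 9.51 with TDNC1, against 9.42, 9.39 and 9.50 in control cells, apart by little (0.08, SE 0.08). MRPS18B read 9.58, 9.62 and 9.24 with TDNC1 and 9.29, 9.29 and 9.39 in control cells, where TDNC1 replicate 3 was the lowest of all arrays (0.16, SE 0.12). MRPS12, a protein of the decoding centre, had a change of -0.12 (SE 0.14).

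In the mitochondrial large subunit 38 of 48 genes (79.2%) were below 0, against 53% of all rows, and the median change was -0.08. Of the 12673 named genes at least as bright as the dimmest member, 6076 were below 0. The genes of this subunit are not independent of each other, and 0 of them passed the test (limma, 0 also at an unadjusted p under 0.05). MRPL49, a protein found only in mitochondrial ribosomes, had the largest change, with 8.66, 8.58 and 9.18 in TDNC1 cells, against 9.02, 9.10 and 9.38 in control cells. TDNC1 replicate 3 lay within the control range. The log2 change was -0.36 (SE 0.18, limma adjusted p = 0.672), and -0.54 without that array.

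MRPL4, with a bacterial homologue that lines the peptide tunnel, showed the same arrangement of arrays. It read 8.69, 8.77 and 9.17 with TDNC1 and 9.01, 9.15 and 9.41 in control cells (-0.31, SE 0.16, limma adjusted p = 0.674), and -0.20 without control replicate 3. MRPL9, another protein with a bacterial homologue, had no overlap. Its values were 9.71, 9.76 and 9.91 with TDNC1, against 10.05, 9.95 and 10.02 in control cells, with a change of -0.21 (SE 0.10, limma adjusted p = 0.651). MRPL34, MRPL36, MRPL37, MRPL48 and MRPL51 were the others with all TDNC1 arrays below the control arrays, at -0.10 to -0.18. MRPL11, which forms the stalk base, read 7.80, 7.79 and 7.86 with TDNC1, against 7.64, 7.65 and 7.78 in control cells, and was higher without overlap (0.13, SE 0.09). MRPL41, a large subunit protein that also binds BCL2, had a change of -0.09 (SE 0.14).

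**Figure D3:**
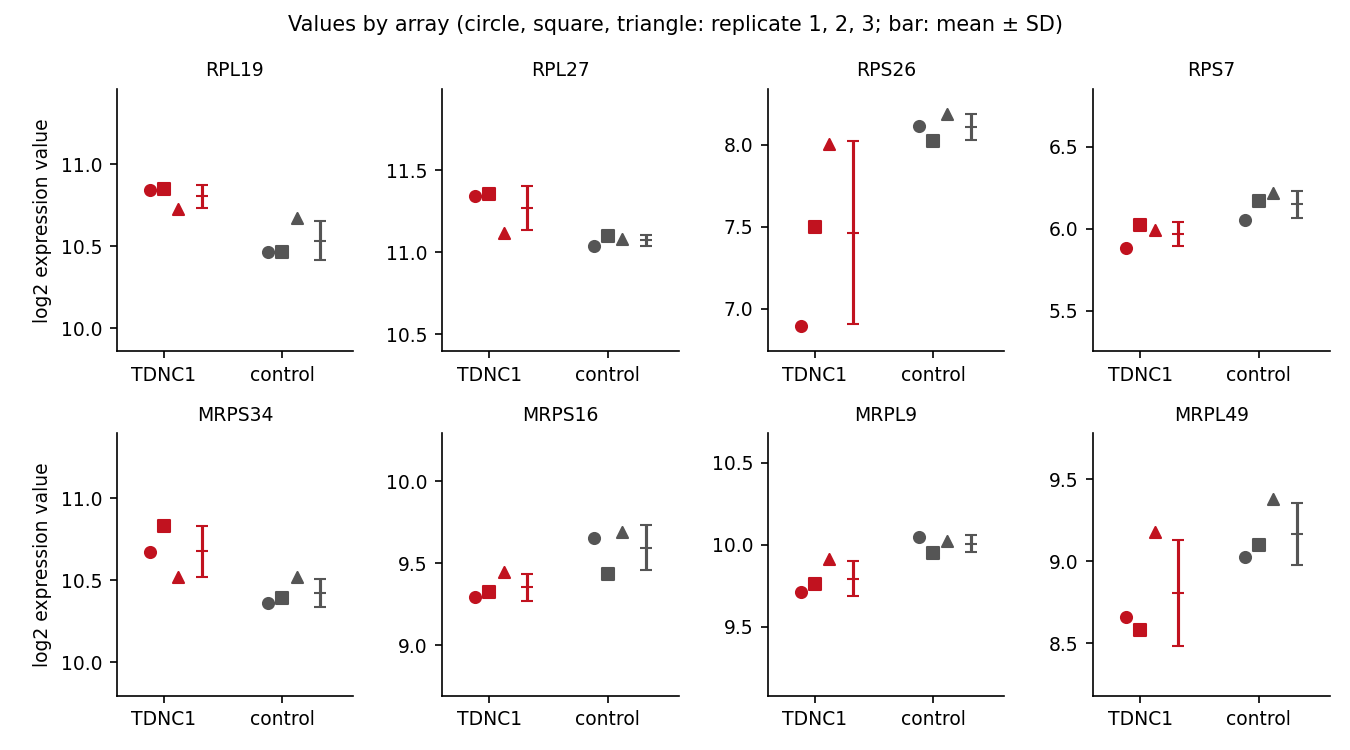
Log2 expression value (vertical axis, each panel spanning 1.6 log2 units) on each of the 3 TDNC1 and 3 control arrays for 8 genes with small unadjusted p, with bars for mean ± SD. In RPS26 the TDNC1 arrays spread from 6.89 to 8.01, while the control arrays lie between 8.03 and 8.19.

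The lower values of the mitochondrial large subunit were clearest on TDNC1 replicates 1 and 2, and in both groups the array numbered 3 had the highest median. Relative to the control mean, the median over its 48 genes was -0.12, -0.08 and 0.01 on TDNC1 replicates 1, 2 and 3, against -0.02, -0.03 and 0.07 on the control arrays. The sets of arrays therefore overlapped. On TDNC1 replicates 1, 2 and 3, 31, 24 and 11 of the 48 genes read below all 3 control arrays, where 31.2%, 28.8% and 25.4% of all rows did. On the same arrays 6, 5 and 9 of the genes read above all control arrays, where 27.3%, 26.8% and 23.9% of all rows did. The count below 0 lay between 35 and 41 of 48 when any 1 array was left out. The median was -0.03 without TDNC1 replicate 1, -0.05 without control replicate 3 and -0.10 without TDNC1 replicate 3.

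In the other subunits the TDNC1 and control arrays also overlapped in their medians. The medians of the mitochondrial small subunit were 0.01, 0.05 and 0.01 with TDNC1, against -0.02, -0.02 and 0.04 in control cells. Those of the cytosolic large subunit were -0.01, 0.04 and 0.05 with TDNC1 and -0.02, 0.00 and 0.01 in control cells, and those of the cytosolic small subunit -0.02, 0.02 and 0.04 with TDNC1 and -0.04, -0.01 and 0.05 in control cells. The median over the large minus that over the small mitochondrial subunit was -0.13, -0.13 and -0.004 on the TDNC1 arrays and -0.001, -0.02 and 0.03 on the control arrays.

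**Figure D4:**
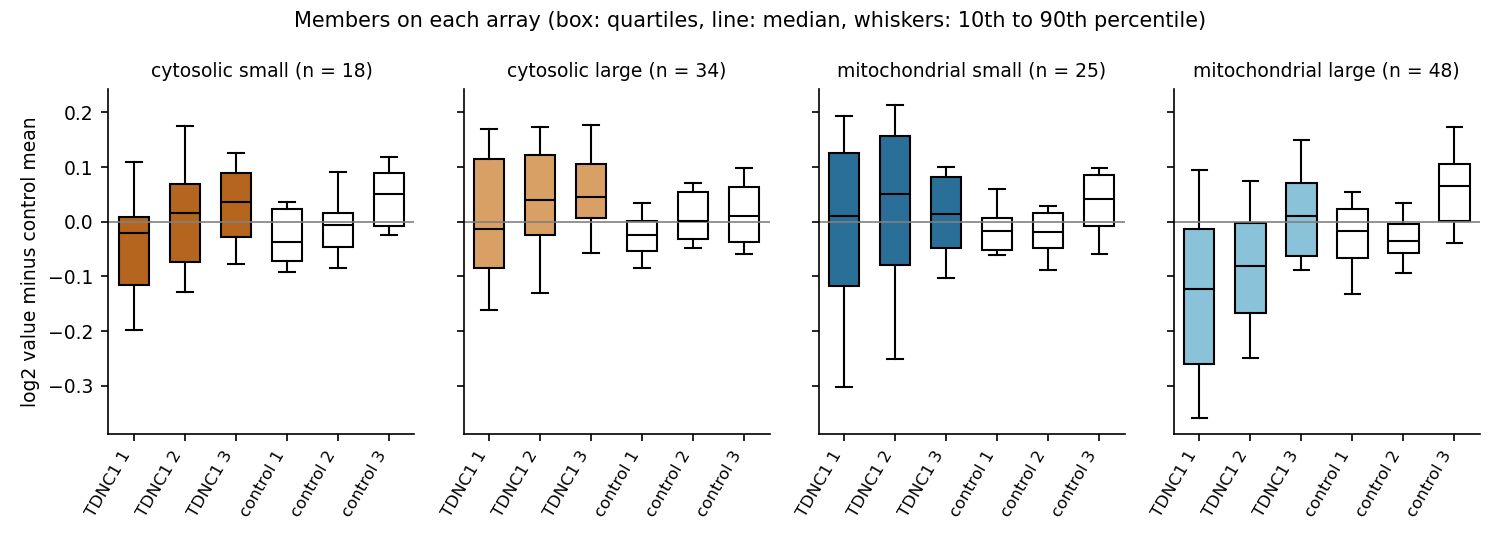
Log2 value minus the control mean of each gene (vertical axis) for the members of each subunit on the 6 arrays, as boxes of quartiles with the median as a line and whiskers from the 10th to the 90th percentile. For the mitochondrial large subunit TDNC1 replicates 1 and 2 have medians of -0.12 and -0.08, and TDNC1 replicate 3 (0.01) lies among the control arrays.

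Without TDNC1 replicate 3, limma called 23 rows (0.0429%) and again 0 members, the lowest adjusted p being 0.139 for RPS26. The cytosolic median was then 0.01 (27 above and 25 below 0), against 0.03 with all arrays, and the mitochondrial median was -0.05 (22 above and 51 below 0). At an unadjusted p under 0.05 stood 3 of 52 cytosolic genes (5.77%, 2 higher and 1 lower) and 14 of 73 mitochondrial genes (19.2%, 3 higher and 11 lower), against 14.5% of all rows (6.87% higher and 7.62% lower). Of the 11 lower mitochondrial genes 7 belonged to the large and 4 to the small subunit. The lowest by p among the large subunit genes were MRPL27 (-0.46, SE 0.10), MRPL20 (-0.38, SE 0.09) and MRPL49 (-0.54, SE 0.13). With all arrays the change of MRPL27 was -0.26 and that of MRPL20 was -0.23. Of the cytosolic genes 13 were higher and 9 lower without overlap (42.3%). Of the mitochondrial genes 14 were higher and 31 lower (61.6%), against 33.3% of all rows (15.9% higher and 17.3% lower). With this array left out, the share among named genes at least as bright as the dimmest member was not counted. The median SE was then 0.098 in the mitochondrial class and 0.125 over all rows. One gene of each class, RPS26 and MRPL49, differed by more than 0.5 on the log2 scale, as did 6.19% of all rows. The 95% interval lay within a 1.5-fold change for 50 of 52 cytosolic and 65 of 73 mitochondrial genes, and for 68% of all rows. These genes of the large mitochondrial subunit were named after the values without that array were seen. What sets TDNC1 replicate 3 apart was not tested.

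Some members had several rows, and a row named for a cytosolic gene did not always lie among rows of that gene's own neighbourhood. The array numbers its rows along the genome, and among 1027 named rows checked, 99.0% had neighbours on the gene's own chromosome and strand. By this check the brightest rows of 73 of 73 mitochondrial and 44 of 52 cytosolic genes lay at their own gene. The rows of RPS18, RPS27 and RPS28 lay among rows of chromosomes 3, 12 and 11, while the genes are on chromosomes 6, 1 and 19. That of RPL39 was on the other strand, and those of RPL10, RPL12, RPL31 and RPL41 had neighbours of mixed chromosomes. Cytosolic ribosomal protein genes have many processed copies, with 1989 pseudogenes named for the class in the gene table, against 106 for the mitochondrial class. The part of such copies in these values was not tested. With only the genes placed at their own locus, 4 cytosolic genes were higher without overlap, in place of 5.

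Rows of the same gene differed for some members. The second row of RPL19, on the other strand, had a change of -0.08 (SE 0.12), while its brightest row had a change of 0.27, and the mean of both was 0.09. RPL39 had a change of 0.22 (SE 0.09) on its second row, which lay at its own gene and was higher without overlap. Its brightest row had a change of -0.11, with overlap. The 5 rows of RPL41 gave changes of 0.06, -0.07, -0.38, -0.20 and 0.03 from the brightest to the dimmest. The third of them read 8.97, 9.16 and 9.42 with TDNC1, against 9.51, 9.59 and 9.58 in control cells, and was lower without overlap (SE 0.13, limma adjusted p = 0.631, an unadjusted p smaller than that of RPL19). On its brightest row RPL41 was higher without overlap. The third row had neighbours of mixed chromosomes, and the row at the gene itself was the dimmest. RPS18 had a change of 0.11 (SE 0.10) at its own gene, and of -0.06 on its brightest row. The 2 rows of MRPS16 gave -0.24 and -0.34. The mean of the 2 rows of MRPS2 gave -0.13, against -0.22 on its brightest row.

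**Figure D5:**
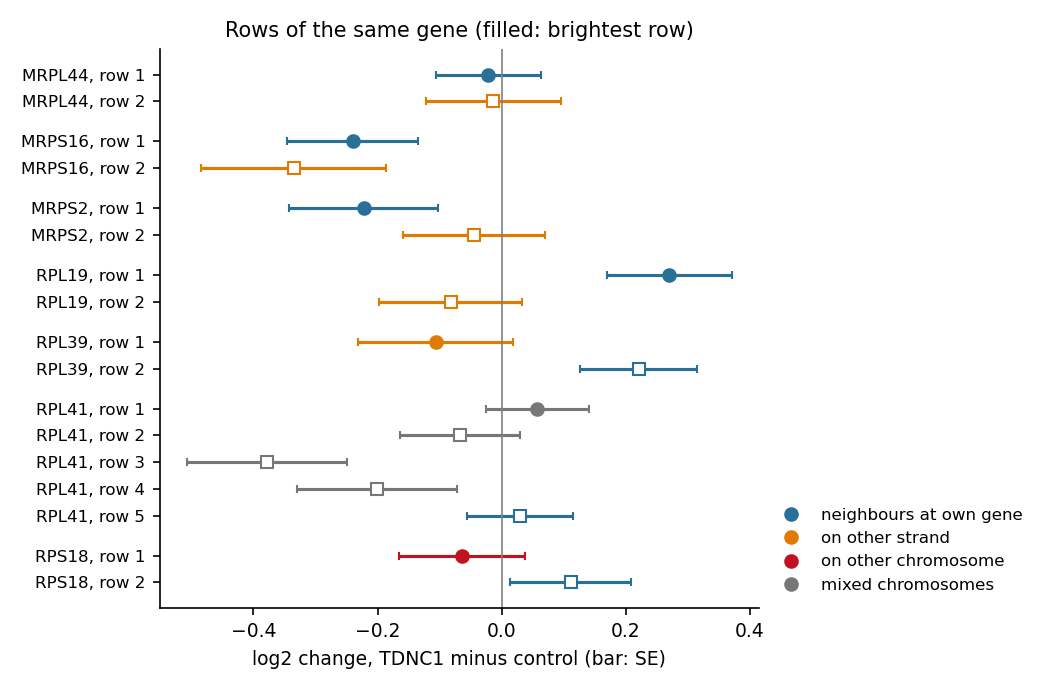
Log2 change (TDNC1 minus control, horizontal axis, bars for 1 SE) of every row of the genes with several rows of differing values, with colours for where the neighbouring rows lie. The rows of RPL19 and of RPL39 fall on different sides of 0.

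Genes that work with these proteins were listed too. Of 51 genes of cytosolic ribosome assembly 38 were measured, with a median of -0.07 and 12 above and 26 below 0, and 0 passed the test (limma, 0 also at an unadjusted p under 0.05). GRWD1, a chaperone of RPL3, read 8.63, 8.70 and 9.85 with TDNC1, against 9.61, 9.72 and 10.03 in control cells (-0.73, SE 0.32, limma adjusted p = 0.646). TDNC1 replicate 3 again lay within the control range, and without it the change was -1.12 (SE 0.15, limma adjusted p = 0.0979). NOP16, which acts in large subunit assembly, was lower without overlap (-0.23, SE 0.10). Of the 38 genes 4 were lower without overlap and 2 higher, among them NOB1 (0.16, SE 0.09). Over all rows 6.48% were higher and 6.7% lower without overlap. Of 36 genes of mitochondrial translation and ribosome assembly 29 were measured, with a median of -0.03 and 11 above and 18 below 0, and 0 passed (limma). At an unadjusted p under 0.05 stood 1, MTRES1, which acts in rescue of stalled mitochondrial ribosomes (-0.30, SE 0.11). Of the 29 genes 2 were lower without overlap and 2 higher, among them NOA1 (0.15, SE 0.09).

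Of 36 cytosolic translation factors 13 were measured, with a median of 0.04 and 8 above and 5 below 0. At an unadjusted p under 0.05 stood 2, EEF1G, a subunit of elongation factor 1 (0.27, SE 0.10), and EIF4B, an initiation factor (0.33, SE 0.13), and 0 passed (limma). The row of EEF1G lay among rows of chromosome 7, while the gene is on chromosome 11. The mRNAs of both also carry an oligopyrimidine tract. Of 24 growth regulators of ribosome production 11 were measured, with 5 above and 6 below 0, a median of -0.04 and 0 passing (limma, 0 also at an unadjusted p under 0.05). TSC2, which restrains mTORC1, had a change of -0.31 (SE 0.14) with overlap, and one of -0.46 without TDNC1 replicate 3. EIF4EBP2 had a change of -0.33 (SE 0.15), also with overlap. Of the 11 only EIF4EBP1 had groups apart, higher with TDNC1 (0.21, SE 0.11). DDIT4, which acts through TSC2, had a change of 0.72 (SE 0.34). DDIT4 read 8.81, 8.85 and 7.52 with TDNC1, against 7.76, 7.58 and 7.69 in control cells. TDNC1 replicate 3 lay below every control array, and without it the change was 1.16 (SE 0.10, limma adjusted p = 0.0563). Of 17 RNA polymerase I genes 3 were measured, with a median of 0.03. Of 14 measured Diamond-Blackfan genes 9 were above and 5 below 0, with a median of 0.02. Of 26 listed ribosomal protein genes that host small nucleolar RNAs 7 were measured, with 6 above and 1 below 0 and a median of 0.05.

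Ribosomal proteins whose symbols fall outside the rule also had small changes. FAU, which encodes the small subunit protein eS30, had a change of 0.03, and RPL36AL one of -0.15, with 2 of 6 listed cytosolic genes measured. Of the mitochondrial ones DAP3, a GTP-binding small subunit protein, had a change of 0.16, PTCD3 one of 0.10 and CHCHD1 one of -0.13. Of 8 listed there, members left out, 4 were measured, with a median of 0.04. As control genes GAPDH had a change of 0.01 (SE 0.09), HPRT1 one of 0.14 (SE 0.09) and TBP one of -0.28 (SE 0.11). Their limma adjusted p were 0.981, 0.699 and 0.642. HPRT1 was higher and TBP lower without overlap, and the unadjusted limma p of TBP was 0.0349.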

How the data were processed

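Each of the 6 samples gave 1 Affymetrix Human Gene 2.0 ST array of total RNA. The deposited values are log2 expression values. The authors made them with Affymetrix Power Tools and RMA, per the submitters' processing notes. Their version, build and annotation are not given in the sources used. RMA makes the distributions of all arrays alike and compresses changes of dim rows. Arrays have no sequencing depth, and 3 arrays per group limit the precision.

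Rows were named by the platform annotation, in which 16098 of 53617 rows had 1 symbol, 0 had several and 37519 are unnamed here. All rows entered 1 two-sided limma fit (version 3.58.1, R 4.3.3, lmFit with eBayes) with no covariate. The call needed a p under 0.05 after Benjamini-Hochberg adjustment over all rows. Changes are TDNC1 minus control. The step was also tested on simulated arrays. Start sequences came from RefSeq tables of GRCh38.p14, where 112 of 125 members were matched, and runs of C or T were counted whether C or T came first.

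Members and lists were chosen with earlier results of these data known. Named by rule were called members, per class the 5 higher and 5 lower with the smallest p, paralogues with their parents, selected regulators and at most 2 genes per direction of each other list, with GAPDH, HPRT1 and TBP. Other genes named, such as those without overlap or with several rows, were picked with their values known. Lists covered ribosomal proteins outside the rule, ribosome assembly, RNA polymerase I, translation, growth regulators, paralogues, small nucleolar RNA hosts, Diamond-Blackfan genes and markers of HEK293, fibroblasts and blood cells. Over all rows, deviations from the group means did not pair the samples by replicate number (correlations of same-numbered arrays 0.036, -0.001 and 0.047). Over the members, however, TDNC1 replicate 3 and control replicate 3 were the closest pair of arrays (0.0519). What the arrays numbered 3 share was not tested. Alternatives covered left-out arrays, array weights, centring, quantile normalisation, a replicate block, a filter on dim rows, no moderation, trend with robust fitting and the mean of a gene's rows.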

Additional observations from a re-analysis of the deposited data

How the results depend on the processing

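The sign of the median of the cytosolic class, the mitochondrial class and the mitochondrial large subunit was kept in each alternative tried, and 0 members were called by limma with all arrays, without TDNC1 replicate 3, without control replicate 3 or without moderation. The 1 called row became 0 without limma's moderation (3620 rows at an unadjusted p under 0.05) and 1 to 23 when 1 array was left out, 23 without TDNC1 replicate 3 and 2 without control replicate 3. When 1 array was left out, the median of the cytosolic small subunit ran from -0.0276 to 0.0432 and that of the mitochondrial small subunit from 0.0097 to 0.0433. Counts at an unadjusted p under 0.05 then ran from 0 to 2 (cytosolic higher), 0 to 1 (cytosolic lower), 0 to 3 (mitochondrial higher) and 0 to 11 (mitochondrial lower), against 1, 1, 0 and 0 with all arrays. Counts without overlap ran from 6 to 13, 2 to 9, 4 to 14 and 8 to 31 in the same order, against 5, 2, 4 and 7. Fewer arrays make separation easier by construction. The largest counts in these ranges were reached without TDNC1 replicate 3. With that array left out, 15.9% of all rows were higher and 17.3% lower without overlap, against 6.48% and 6.7% with all arrays. The p threshold was then met by 6.87% of all rows upwards and 7.62% downwards, against 3.74% and 3.96% with all arrays. For the other arrays left out singly, such shares by direction were not counted. Without both arrays numbered 3, those without overlap were 17 and 16 higher (cytosolic, mitochondrial) and 11 and 33 lower. Of all rows 21.9% were then higher and 26% lower without overlap. Those at an unadjusted p under 0.05 were 2 and 3 higher and 8 lower (mitochondrial). Of all rows 6.9% were higher and 8.09% lower at that p. At that threshold array weights gave 2 cytosolic and 2 mitochondrial genes higher and 7 mitochondrial lower, trend with robust fitting 2, 1 and 2, and no moderation 2 cytosolic higher and 5 mitochondrial lower. Only rows above the median level gave 1 mitochondrial gene higher and 2 lower, the mean of a gene's rows 0 cytosolic higher and 1 mitochondrial lower, and centring 1 mitochondrial higher. With a replicate block 0 cytosolic genes were higher and 2 mitochondrial lower. Without overlap, 3 cytosolic genes were higher with quantile normalisation and 3 with the mean of a gene's rows, and centring gave 1 mitochondrial higher and 0 cytosolic lower. For array weights and the settings given after it, the shares of all rows by direction were not counted. These counts of members therefore cannot be set against a background. Of the named members 7 changed sign in some alternative (RPL3L, RPL10L, RPL22L1, RPL39L, RPS27L, RPL26 and RPL39). The causes were not tested. Both the restriction to genes whose rows lie at their own locus and the count of MRPS18A and MRPS30 in the large subunit were chosen after seeing the data.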
